A study of Homo sapiens with 4 samples.

Results

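The m5C peaks of human chromosome 11 numbered 538, 219 of the 3177 peaks listed for replicate 1 and 319 of the 5742 listed for replicate 2. They were taken from both deposited lists by chromosome. Left out were 7 replicate 1 and 8 replicate 2 peaks in 2 stretches of the short arm that are not analysed here. The lists came from PANC-1 cells, a long-established line from a human pancreatic carcinoma. In m5C MeRIP-seq, the assay used, RNA pieces bound by an antibody to 5-methylcytosine (m5C) are sequenced beside input RNA that had no antibody step. All 4 samples, 2 immunoprecipitated and 2 input, came from cells pretreated with extracellular vesicles, small membrane parcels that carry RNA and protein, from cancer-associated fibroblasts, which are connective tissue cells altered by a tumour. No group without vesicles is among these labels, and what the vesicles do was not compared here. PANC-1 is 1 cell line grown without its tumour stroma, and the labels name no separate cultures, so the spread between replicates may be technical. The lists give positions, widths, scores and strands but no gene and no read count. The depth of each library is therefore unknown, and the identity of the cells could not be checked against marker genes.

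5-methylcytosine is a methylated RNA base placed on messenger RNA mainly by the methyltransferase NSUN2 and bound by reader proteins such as ALYREF, an mRNA export factor, and YBX1, which stabilises bound transcripts. A peak here is a stretch where antibody-bound RNA was called above input, which does not place the methylated base within it. Chromosome 11 is unevenly filled with genes. 11p15, at the end of the short arm, holds imprinted genes such as the growth factor IGF2, and 11q13 on the long arm is a gene-rich region that holds the cell cycle gene CCND1 and is amplified in several cancers. Large families of olfactory receptor genes, which most tissues do not express, occupy several stretches, one of them within 11p15. No hg19 annotation or genome was used here, so the peaks below are given by position and not by gene, and no sequence is shown.

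Chromosome 11 held 6.89% of the replicate 1 list (95% Wilson interval 6.06 to 7.83) and 5.56% of the replicate 2 list (4.99 to 6.18). Without the left-out peaks it ranked 4 of 24 chromosomes by number of peaks in replicate 1 and 5 of 24 in replicate 2, and with them, at 226 and 327 peaks, it ranked 3 and 5. The nearest chromosomes in rank included 17, with 221 and 333 peaks. Chromosome 19 held 282 and 454. These intervals, and all others given for shares, cover the counting of peaks only. Peaks of a list share 1 library and often a transcript, so no p-value over peaks is given, and differences are set against the intervals and between the replicates.

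The peaks were denser in some stretches of the chromosome, and the same stretches stood out in both replicates. In windows of 1 Mb (hg19 build, counted from the first base, each peak placed by its centre), 11q13 was taken as the 14 windows from 63 to 77 Mb and 11p15 as the 22 windows from 0 to 22 Mb. The remaining 99 windows up to the last listed peak are called the rest of the chromosome. 11q13 held 71 of the 219 replicate 1 peaks, or 32.4% (26.6 to 38.9), and 92 of the 319 replicate 2 peaks, or 28.8% (24.1 to 34.04). It makes up 10.4% of the windows. 11p15, with 16.3% of the windows, held 56 replicate 1 peaks, or 25.6% (20.2 to 31.7), and 69 replicate 2 peaks, or 21.6% (17.5 to 26.5). The 2 left-out stretches both lie in 11p15, so its counts are without them. The rest of the chromosome, with 73.3% of the windows, held 92 replicate 1 peaks, or 42.0% (35.7 to 48.6), and 158 replicate 2 peaks, or 49.5% (44.1 to 54.99).

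Per 1 Mb window, 11q13 held 5.07 peaks in replicate 1 and 6.57 in replicate 2. 11p15 held 2.55 and 3.14, and the rest of the chromosome 0.929 and 1.60. The order 11q13, 11p15, rest was the same in both replicates. Density in 11q13 was 5.46 times that of the rest in replicate 1 and 4.12 times in replicate 2, and in 11p15 it was 2.74 and 1.97 times. 11p15 was itself uneven. Its end, from 0 to 4 Mb, held 24 replicate 1 and 28 replicate 2 peaks, and its far longer part from 4 to 22 Mb held 32 and 41. The 11p15 densities are thus averages that its end raises. The rest of the chromosome includes the centromere, where little sequence could be mapped, and 44 of its 99 windows held no peak. Whether mapping bears on its density was not tested.

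**Figure D1:**
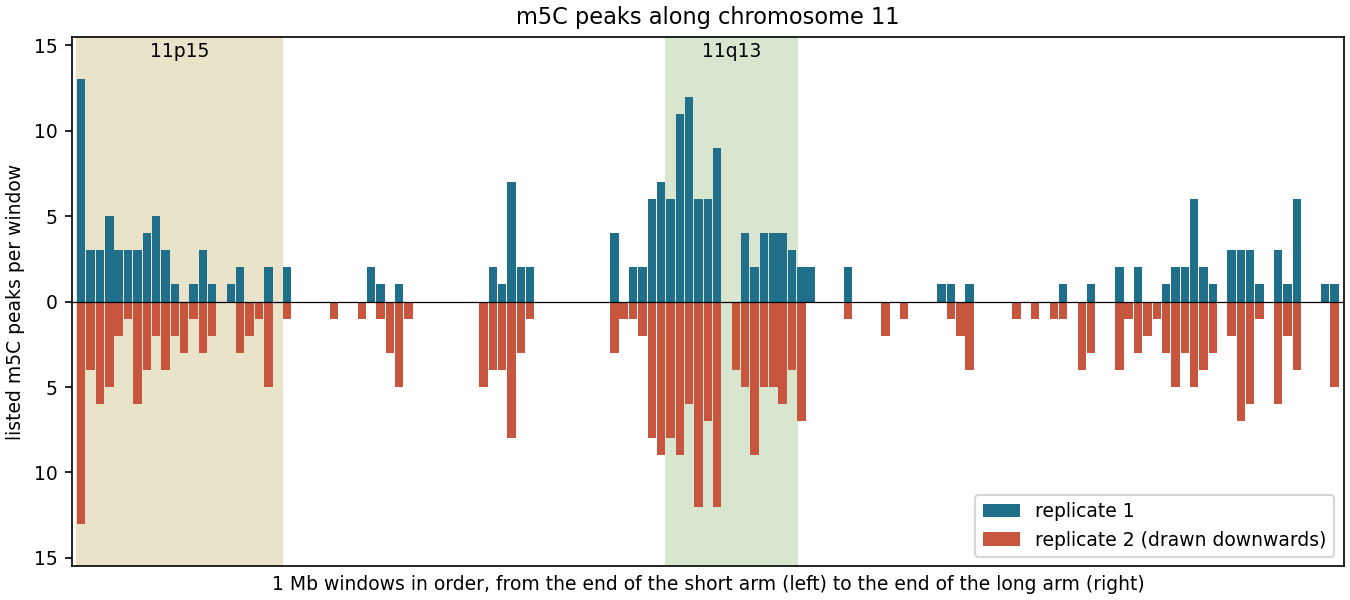
Listed m5C peaks in each of 135 windows of 1 Mb along chromosome 11, replicate 1 upwards and replicate 2 downwards, with 11p15 and 11q13 shaded. Both replicates have their tallest bar, 13 peaks, in the first window and a block of tall bars at the start of 11q13, and 47 windows are empty in both.

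The numbers in the peak names gave a second view of this density. They increase with position, so the numbers spanned by the listed peaks of a stretch count peaks that were numbered but mostly not listed. The limits given come from the unlisted peaks at the ends of each stretch. Replicate 1 numbers ran at 33.6 to 34.9 per Mb in 11q13 and 21.5 to 22.4 in 11p15. Between 22 and 63 Mb they ran at 10.1 to 10.5 per Mb, and beyond 77 Mb at 13.7 to 14.1. In replicate 2 the numbers per Mb were 104.3 to 106.7 in 11q13, 69.3 to 72.9 in 11p15, 35.2 to 36.98 from 22 to 63 Mb and 45.6 to 46.5 beyond 77 Mb. Numbered peaks, most of which are not in the lists, were thus densest in 11q13 in both replicates.

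The listed share of the numbered peaks was also highest in 11q13. In replicate 1, 14.5% to 15.1% of the numbered 11q13 peaks were listed, against 6.22% to 6.41% beyond 77 Mb and 8.85% over all chromosomes. The replicate 2 shares were 6.16% to 6.30% in 11q13, 3.56% to 3.63% beyond 77 Mb and 4.63% over all chromosomes. From 22 to 63 Mb they were 9.49% to 9.86% in replicate 1 and 4.09% to 4.30% in replicate 2. In 11p15 they were 11.4% to 11.8% and 4.30% to 4.53%, below 11q13 and above the stretch beyond 77 Mb in both replicates, with its left-out peaks counted as numbered and not as listed. The name of the lists refers to mRNA, but the rule by which peaks were kept is not given in the sources used here.

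Windows with peaks of both lists covered most of the peaks. Of the 135 windows, 68 held a replicate 1 peak and 83 a replicate 2 peak, and 63 held both. That is 71.6% (61.4 to 79.96) of the 88 windows with any peak, where 54.7% of such windows held both over all chromosomes. Only chromosomes 19 (88.2%), 22 (83.9%) and 17 (75%) had a larger share. The 63 windows held 212 of the 219 replicate 1 peaks, or 96.8%, and 281 of the 319 replicate 2 peaks, or 88.1%. The share of windows with both lists fell below this interval with smaller windows (58.3% at 0.5 Mb), with each strand counted apart (59.4%) and with the higher-scoring part of each list (55.1%). A window with more peaks meets this count more easily. Of the 18 windows with 1 replicate 1 peak, 15 also held a replicate 2 peak, as did 28 of the 30 with 2 to 3 peaks and all 20 with 4 or more.

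Windows of only 1 list were thinly filled. There were 5 for replicate 1, with 7 peaks in all and no more than 2 in any, and 20 for replicate 2, with 38 peaks. The fullest of the latter, from 43 to 44 Mb, held 5 replicate 2 peaks and no replicate 1 peak. 11q13 had 12 windows with both lists, 1 with replicate 2 only and 1 with neither, from 69 to 70 Mb. 11p15 had 16 with both, 1 with replicate 1 only, 3 with replicate 2 only and 2 with neither. Its first 11 windows all held both lists, the longest such run on the chromosome. In the rest, 35 of 99 windows held both lists and 44 held no peak. The longest empty run, 8 windows from 49 to 57 Mb, spans the centromere, and the next, 7 windows from 36 to 43 Mb, lies in the short arm.

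Windows with more replicate 1 peaks tended to hold more replicate 2 peaks, with a Spearman's rho of 0.64 over the 88 windows that held a peak. This is a description with no test, since the windows of both lists share the same genes and the same selection of peaks. Replicate 2, the longer list, had more peaks than replicate 1 in 60 windows and fewer in 18. Over all 135 windows, the 67 without a replicate 1 peak held 0.567 replicate 2 peaks on average. This mean includes the 47 windows that were empty in both lists, and the other 20 held 38 replicate 2 peaks. Windows with 1 replicate 1 peak held 2.11 on average, those with 2 to 3 held 3.57 and those with 4 or more held 6.8.

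Of all windows the first, from 0 to 1 Mb in 11p15, held the most peaks in both replicates, 13 in each. Replicate 1 peaks there were split 6 to 7 between plus and minus strand, and replicate 2 peaks 9 to 4. The next fullest in replicate 1 were 65 to 66 Mb with 12 peaks, 64 to 65 Mb with 11, 68 to 69 Mb with 9, and 46 to 47 and 62 to 63 Mb with 7 each. In replicate 2 they were 66 to 67 Mb and 68 to 69 Mb with 12 each, then 62 to 63, 64 to 65 and 72 to 73 Mb with 9 each. After the first window, all of these but 46 to 47 Mb lie in 11q13 or within 1 Mb of it.

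The 8 windows from 61 to 69 Mb, a block chosen after the counts had been seen, each held 6 to 12 peaks in both replicates. Together they held 63 replicate 1 peaks, or 28.8% (23.2 to 35.1), and 71 replicate 2 peaks, or 22.3% (18.04 to 27.1). The other part of 11q13, from 69 to 77 Mb, held 21 and 38. The window from 46 to 47 Mb, outside both bands, held 7 replicate 1 and 8 replicate 2 peaks.

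Some windows were filled from 1 strand. From 64 to 65 Mb all 11 replicate 1 peaks lay on the minus strand, whereas the 9 replicate 2 peaks were split into 4 plus and 5 minus. From 72 to 73 Mb all 9 replicate 2 peaks and both replicate 1 peaks were on the minus strand. From 65 to 66 Mb the plus strand held 9 of 12 replicate 1 peaks and 4 of 6 replicate 2 peaks. Over the whole chromosome the strands were nearly even, with 109 plus and 110 minus peaks in replicate 1 and 163 and 156 in replicate 2.

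Where windows were shared, the peaks inside them mostly were not. On the same strand, 23 replicate 1 peaks of chromosome 11 had 1 bp or more in common with a replicate 2 peak, a share of 10.5% (7.10 to 15.3), beside 13.6% of replicate 1 peaks over all chromosomes. Seen from replicate 2 it was 24 peaks, or 7.52% (5.11 to 10.95), beside 7.49%. The shares lie within counting error of those of the whole lists.

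Among the peaks kept, overlaps were unevenly spread along the chromosome. Of the 23 overlapping replicate 1 peaks 11q13 held 12, which is 16.9% of its 71 peaks (9.94 to 27.3). 11p15 held 1, which is 1.79% of its 56 peaks (0.316 to 9.45), and the rest of the chromosome held 10 of 92, or 10.9% (6.01 to 18.9). In replicate 2 the same 3 stretches had 13.04% (7.62 to 21.4), 1.45% (0.256 to 7.76) and 6.96% (3.93 to 12.04). The intervals of 11p15 and 11q13 do not overlap in replicate 1 and overlap slightly in replicate 2. The 11p15 shares are without its left-out peaks, 7 in replicate 1 and 8 in replicate 2. Some of these overlapped the other list, so with them the 11p15 shares would be higher and closer to those of 11q13. The gap between the replicate 1 intervals therefore holds for the kept peaks only. Whether it would remain with the left-out peaks was not tested. With a reciprocal overlap of 50% the lead of 11q13 was lost. By that rule 0 of 56 replicate 1 peaks overlapped in 11p15, 2 of 71 in 11q13, or 2.82% (0.776 to 9.70), and 5 of 92 in the rest, or 5.43% (2.34 to 12.1). In replicate 2 the shares were 0%, 2.17% and 3.16%, and the intervals overlap in both lists. The overlaps are the same peaks counted from each side, so the replicates do not give 2 separate readings of this difference.

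The first window held 13 peaks of each replicate and no overlap, a share of 0% (0 to 22.8). With so few peaks, this interval includes the chromosome's shares of 10.5% and 7.52%. The window from 65 to 66 Mb, second in replicate 1, also had no overlap among its 12 and 6 peaks (0 to 24.2 and 0 to 39.03). In it 1 replicate 1 peak lay within 10 kb of a replicate 2 peak on the same strand. From 64 to 65 Mb 3 of 11 replicate 1 peaks overlapped 3 of 9 replicate 2 peaks, with wide intervals (9.75 to 56.6 and 12.06 to 64.6).

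Some peaks of the 2 lists missed each other by a short distance, in 11p15 and elsewhere. Across chromosome 11, 10 pairs of peaks on the same strand lay within 1 kb of each other without overlapping, which is 4.57% of replicate 1 peaks (2.50 to 8.20) beside 3.62% over all chromosomes. From replicate 2 it was 9 peaks, or 2.82% (1.49 to 5.27), beside 1.99%. Of these pairs 5 were in 11p15, or 8.93% of its replicate 1 peaks (3.87 to 19.3), with gaps of 47 to 799 bp. The closest was on the minus strand in the first window, where the replicate 2 peak from 127636 to 127928 ended 47 bp before the replicate 1 peak from 127976 to 128257. Their scores were 58.37 and 3100. Also in the first window, on the plus strand, a replicate 2 peak from 552116 to 552232 lay 345 bp from the replicate 1 peak at 552578 to 552702, and a replicate 1 peak from 581492 to 581588 lay 373 bp from the replicate 2 peak at 581962 to 582081. 11q13 had 1 such near pair, with a gap of 957 bp, or 1.41% of its replicate 1 peaks (0.249 to 7.56). The rest of the chromosome had 4, or 4.35% (1.70 to 10.7), with gaps of 267 to 708 bp. The intervals of the 3 stretches overlap.

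Counting overlaps and neighbours together brought 11p15 up to the rest of the chromosome, while 11q13 kept the highest share. Within 10 kb on the same strand, 21.4% of 11p15 replicate 1 peaks (12.7 to 33.8), 35.2% of those in 11q13 (25.1 to 46.8) and 21.74% in the rest (14.5 to 31.2) had a replicate 2 peak. For the whole chromosome this was 57 of 219, or 26.03%, beside 28.8% over all chromosomes. From replicate 2 it was 55 of 319, or 17.2%, beside 16.9%. Its shares were 17.4% in 11p15 (10.2 to 27.98), 22.8% in 11q13 (15.4 to 32.4) and 13.9% in the rest (9.38 to 20.2). The intervals of the 3 stretches overlap at this distance in both lists.

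**Figure D2:**
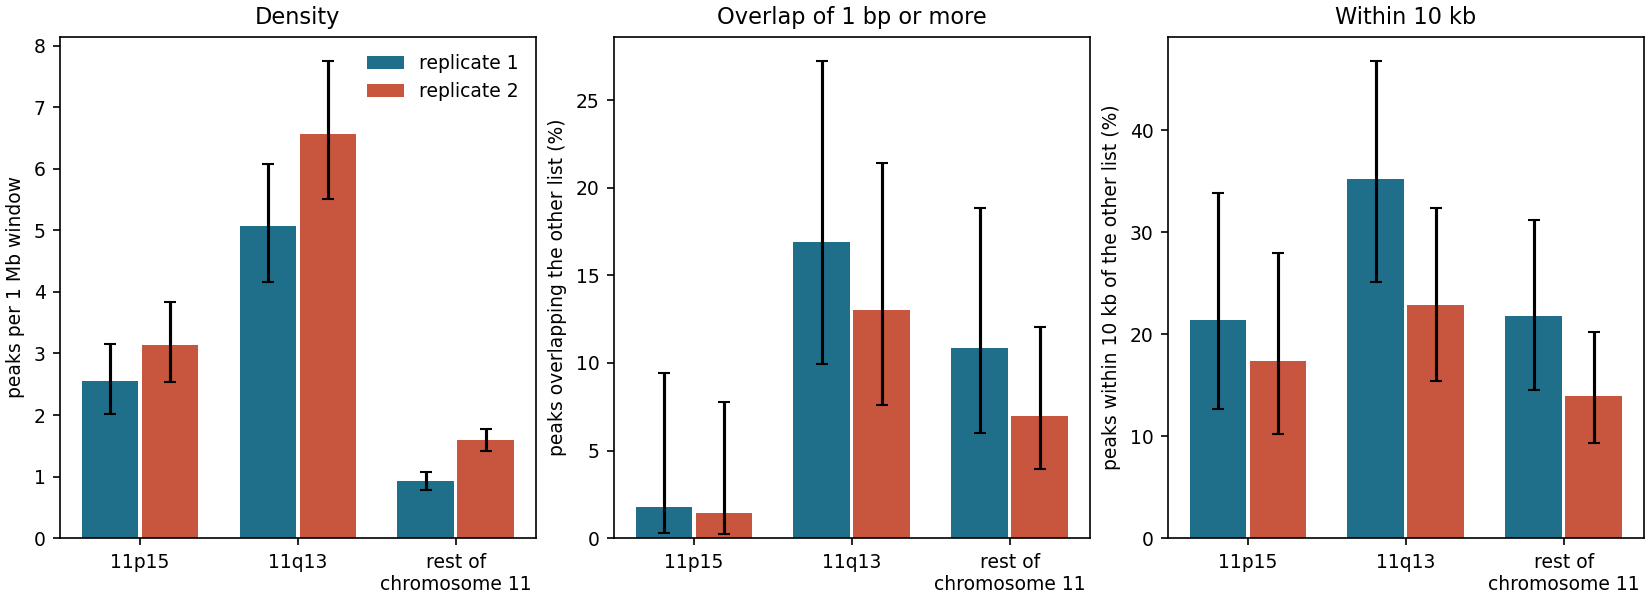
Peaks per 1 Mb window, share of peaks overlapping the other list and share within 10 kb of it on the same strand, for 11p15, 11q13 and the rest of chromosome 11. Bars are 1 list each and whiskers are 95% Wilson intervals, in the left panel of the stretch's share of the chromosome's peaks. 11q13 is the densest stretch in both replicates. 11p15, drawn without its left-out peaks, has the lowest overlap, 1 peak of 56 and 1 of 69.

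The 23 and 24 overlapping peaks formed 24 pairs, in 17 windows, with a median overlap of 95 bp and a range of 27 to 604 bp. 12 pairs lay in 11q13, 1 in 11p15 and 11 in the rest, and 15 were on the minus strand. The peaks of a pair seldom covered each other. In 7 of 24 pairs the overlap reached 50% of both peaks, a share of 29.2% (14.9 to 49.2), where over all chromosomes 55.9% (51.2 to 60.5) of 435 pairs did. Counted over peaks this was 3.20% of replicate 1 (1.56 to 6.45) beside 7.65% over all chromosomes, and 2.19% of replicate 2 (1.07 to 4.46) beside 4.23%. The replicate 1 interval lies below the share of the whole list, and the replicate 2 interval includes it. No test of this difference was run.

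In many pairs 1 peak sat inside the other. In 10 pairs the replicate 1 peak lay wholly within the replicate 2 peak, in 7 the reverse, and 1 pair had identical ends and counts in both. The replicate 2 peak was the wider in 14 pairs and the replicate 1 peak in 9. A start or end on exactly the same base was found in 11 of 24 pairs, or 45.8% (27.9 to 64.9), beside 52.2% over all chromosomes. On the minus strand 7 of 15 pairs shared the lower coordinate and 1 the upper, while on the plus strand 2 of 9 shared each. Over all chromosomes the minus strand had 70 pairs sharing the lower and 69 the upper edge.

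The pair with the highest mean log2 score lay on the plus strand near the end of the long arm. Its replicate 1 peak, 775 bp from 128781227 to 128782001 with the score 3100, contained the 287 bp replicate 2 peak from 128781297 to 128781583, which scored 1612.36. A further replicate 2 peak, from 128781906 to 128782105 with a score of 314.72, overlapped the last 96 bp of the same replicate 1 peak, so that 1 wide peak in replicate 1 corresponded in position to 2 narrower ones in replicate 2.

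The next pair was the only one of 11p15, on the minus strand. The replicate 1 peak ran 301 bp from 2152322 to 2152622 with the score 3100. The replicate 2 peak ran 1715 bp from 2152556 to 2154270 with a score of 1532.9, the second widest of its chromosome, and the overlap was 67 bp. The pair at rank 4, on the minus strand just before 11q13, was made of the peaks from 62314132 to 62314332 in replicate 1 and 62314132 to 62314303 in replicate 2. They shared their lower coordinate and scored 970.61 in replicate 1 and 3100 in replicate 2, where only 1 other chromosome 11 peak had that score.

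In 11q13 the highest pair was on the plus strand, where the 318 bp replicate 1 peak from 67017692 to 67018009 (2678.61) lay within the 665 bp replicate 2 peak from 67017562 to 67018226 (1328.82). The identical pair ran 94 bp from 74563034 to 74563127 on the minus strand and scored 3100 in replicate 1 and 604.01 in replicate 2. Minus-strand peaks from 68517658 shared their lower coordinate and were 69 and 147 bp wide, with scores of 3100 and 518.71. Plus-strand peaks ending at 66419843 shared their upper coordinate and were 33 and 96 bp wide, with scores of 3100 and 416.58. A pair outside 11q13, from 113295085 on the minus strand, shared its lower coordinate, with widths of 156 and 282 bp and scores of 3100 and 782.99. The tenth pair, at 64532858 to 64533057 in replicate 1, belongs to the cluster described below.

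The other 14 pairs had replicate 1 scores of 11.01 to 3100 and replicate 2 scores of 55.36 to 885.47. Both extremes met in the last of them, on the minus strand from 63933169, where the replicate 1 score of 11.01 was the second lowest of the chromosome and the replicate 2 score was 885.47. Of all 24 pairs, 8 had the score 3100 in replicate 1 and 1 had it in replicate 2.

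**Figure D3:**
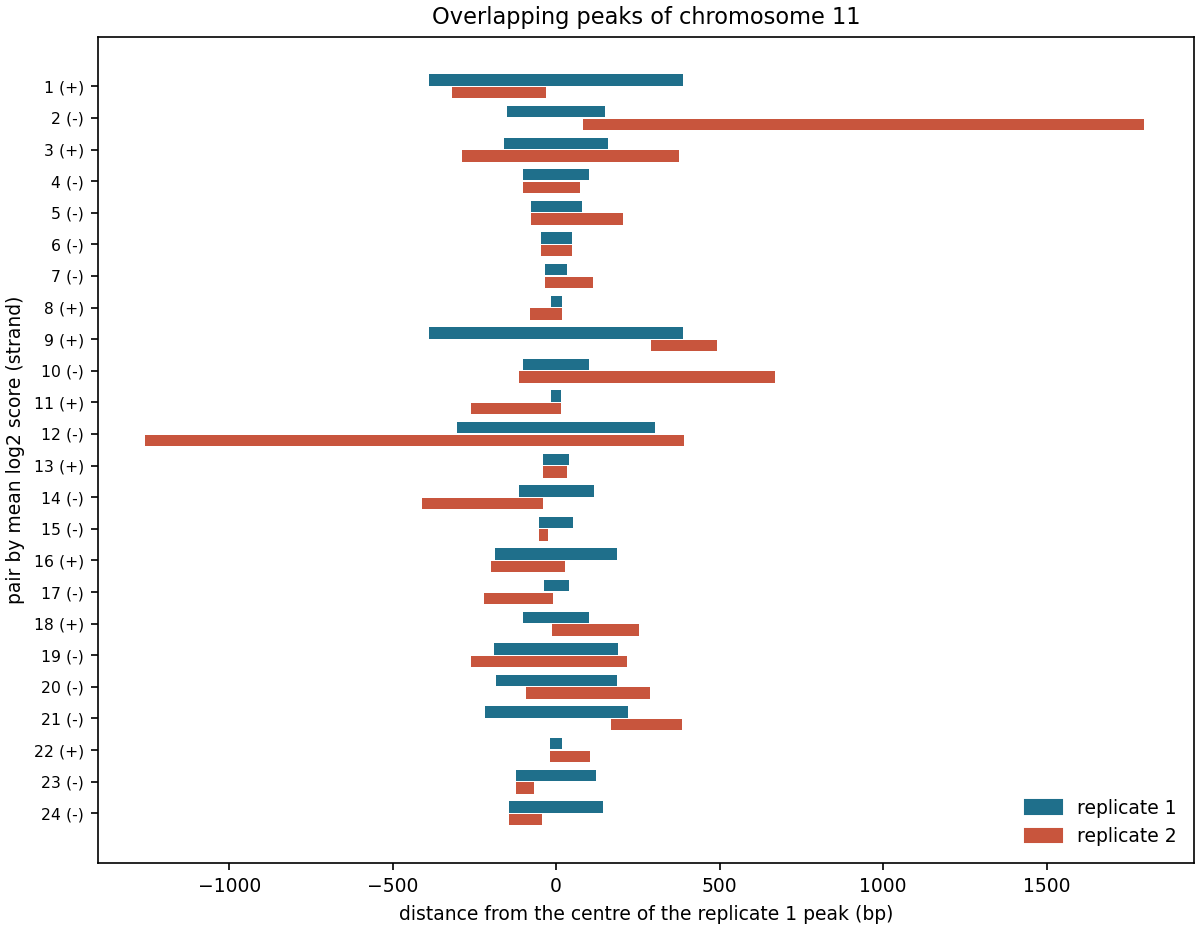
Extents of the 24 overlapping pairs, each drawn around the centre of its replicate 1 peak in bp and ordered by mean log2 score, with the strand in parentheses. Replicate 1 peaks are the upper bars and replicate 2 peaks the lower bars of each pair, and pairs 1 and 9 show the same replicate 1 peak. Many pairs line up at 1 edge, 11 of them to the base, while 7 overlap by 50% of both peaks.

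Same-strand peaks of both lists, when linked wherever the gap was 10 kb or less, formed 420 clusters. Of these, 319 held 1 peak and 49 held peaks of both lists. Among the 49, 20 were in 11q13, 10 in 11p15 and 19 in the rest. Linked by themselves, replicate 1 peaks formed 62, 51 and 82 clusters in these stretches, and replicate 2 peaks 79, 63 and 133. The share of clusters with both lists over all chromosomes is not given here, so the 49 are a count only. A single cluster reached 4 peaks. It lay on the minus strand in 11q13 from 64532845 to 64545938, a span of 13094 bp, with 3 replicate 1 and 2 replicate 2 peaks in 2 overlapping pairs. At its lower end a 200 bp replicate 1 peak (score 1798.9) lay inside a 783 bp replicate 2 peak (415.62), and at its upper end a 378 bp replicate 1 peak from 64545532 (391.47) lay inside a 480 bp replicate 2 peak (139.59). Between them, from 64537436 to 64537525, replicate 1 alone had a peak, with a score of 1884.61, the highest of the 3 replicate 1 peaks of the cluster. A further 14 clusters held 3 peaks.

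Peak widths on chromosome 11 were close to those elsewhere, and the small differences ran in opposite directions in the 2 lists. The median width was 151 bp in replicate 1 (exact binomial 95% interval 125 to 196) and 161 bp in replicate 2 (136 to 189). On all other chromosomes it was 167 bp (160 to 174) and 140 bp (135 to 145). The share of peaks under 50 bp was 12.8% in replicate 1 (8.996 to 17.9), from 28 peaks, and 14.1% in replicate 2 (10.7 to 18.4), from 45 peaks, beside 13.1% and 15.6% over all chromosomes. Their summed width came to 38897 bp for replicate 1 and 62193 bp for replicate 2.

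Median widths differed more between the stretches in replicate 1 than in replicate 2. In replicate 1 the median width was 124.5 bp in 11p15 (85 to 169), 156 bp in 11q13 (104 to 200) and 200 bp in the rest (135 to 202), with intervals that overlap. The replicate 2 medians were 173 bp in 11p15, 156.5 bp in 11q13 and 160 bp in the rest. No 11p15 peak of replicate 1 was wider than 350 bp, whereas the widest of 11q13 was 592 bp and of the rest 826 bp. The order of the stretches in replicate 1 did not recur in replicate 2.

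A width close to 200 bp recurred, more so in replicate 1. In both lists 200 bp was the most frequent width on the chromosome, with 14 and 7 peaks. Counts were made within 4 bp of that width, a range chosen after the widths had been seen. There lay 28 of 219 replicate 1 peaks, or 12.8% (8.996 to 17.9), and 14 of 319 replicate 2 peaks, or 4.39% (2.63 to 7.23). The other chromosomes held 10.2% (9.13 to 11.3) and 4.27% (3.76 to 4.84). A further 14 replicate 1 peaks lay 5 to 20 bp away from 200 bp, 6 below it and 8 above. In replicate 2 this was 28 peaks, 10 below and 18 above. Of the 28 replicate 1 peaks within 4 bp of 200 bp, 12 were in 11q13, 12 in the rest and 4 in 11p15. The score 3100, which 50.7% of all replicate 1 peaks of the chromosome had, was held by 5 of them, or 17.9% (7.88 to 35.6). On all other chromosomes it was held by 21.3% (17.1 to 26.3) of the peaks of this width, a share near that of chromosome 11. From 68 to 69 Mb 4 of the 28 chromosome 11 peaks stood in 2 neighbouring minus-strand pairs, with scores from 1288.6 to 2483.55. They lay at 68475176 to 68475375 and 68475748 to 68475948, and at 68772222 to 68772423 and 68772836 to 68773035. Such same-strand pairs also lay outside 11q13, from 31810278, 46696447, 78367958 and 130586233, with scores from 30.45 to 2916.86.

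The widest replicate 1 peak of the chromosome measured 826 bp, on the minus strand from 22645239 to 22646064, with the score 3100 and no replicate 2 peak over it. The widest of replicate 2 measured 2290 bp, on the minus strand from 118771328 to 118773617, with a score of 100.76, low in its list, and no replicate 1 peak over it. The other 4 of the 5 widest ranged from 575 to 775 bp in replicate 1 and from 783 to 1715 bp in replicate 2. Of the 5 widest, 2 in replicate 1 and 3 in replicate 2 overlapped the other list. They met at 57077337 to 57077940 on the minus strand, a 604 bp replicate 1 peak that lay within a replicate 2 peak of 1651 bp, with scores of 2326.62 and 173.15. At the other end, the narrowest replicate 1 peak was 2 bp wide, from 65063011 to 65063012 on the plus strand, and had the score 3100.

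The authors' deposited scores come without a unit or a scale common to both lists, so levels are compared within a list. Scores of both lists enter together only in the mean log2 score that orders the pairs. In replicate 1 the score 3100 was held by 111 of the 219 peaks, or 50.7% (44.1 to 57.2), beside 52.1% over all chromosomes at or above it, and no chromosome 11 peak scored higher. In replicate 2 it was held by 2 of 319, or 0.627% (0.172 to 2.26), beside 0.679%. These 2 were the shared peak from 62314132 and a 366 bp peak on the minus strand from 124506228 to 124506593, which overlapped no replicate 1 peak. The next 3 of replicate 2, none of them shared, scored 2564.81 from 377176 to 377327 (plus strand, 11p15), 2120.18 from 76913367 to 76913469 (plus, 11q13) and 2088.61 from 88300222 to 88300479 (minus). The median was 3100 for replicate 1. For replicate 2 it was 276.64 (236.26 to 322.53), and 281.27 on all other chromosomes.

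Within replicate 1, the score 3100 was held by 62.5% of 11p15 peaks (49.4 to 73.99), 53.5% of 11q13 peaks (42.04 to 64.6) and 41.3% of the rest (31.8 to 51.5). The intervals overlap. Below 3100 the medians of the 3 stretches were 571.89, 630.03 and 458.89. Replicate 2 medians were 257.15 in 11p15, 261.64 in 11q13 and 298.73 in the rest, with overlapping intervals, and so did not follow the order of replicate 1. In the first window, 3100 was the score of 10 of the 13 replicate 1 peaks, and the replicate 2 peaks there ranged from 58.37 to 2564.81, the latter the third highest of its chromosome. Overlapping replicate 1 peaks had the score 3100 in 7 of 23 cases, or 30.4% (15.6 to 50.9), and the others in 104 of 196, or 53.1% (46.1 to 59.9). In replicate 2 the median score was 386.8 for overlapping peaks (223.69 to 604.01) and 272.97 for the others (224.32 to 318.05). In both lists the intervals overlap.

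**Figure D4:**
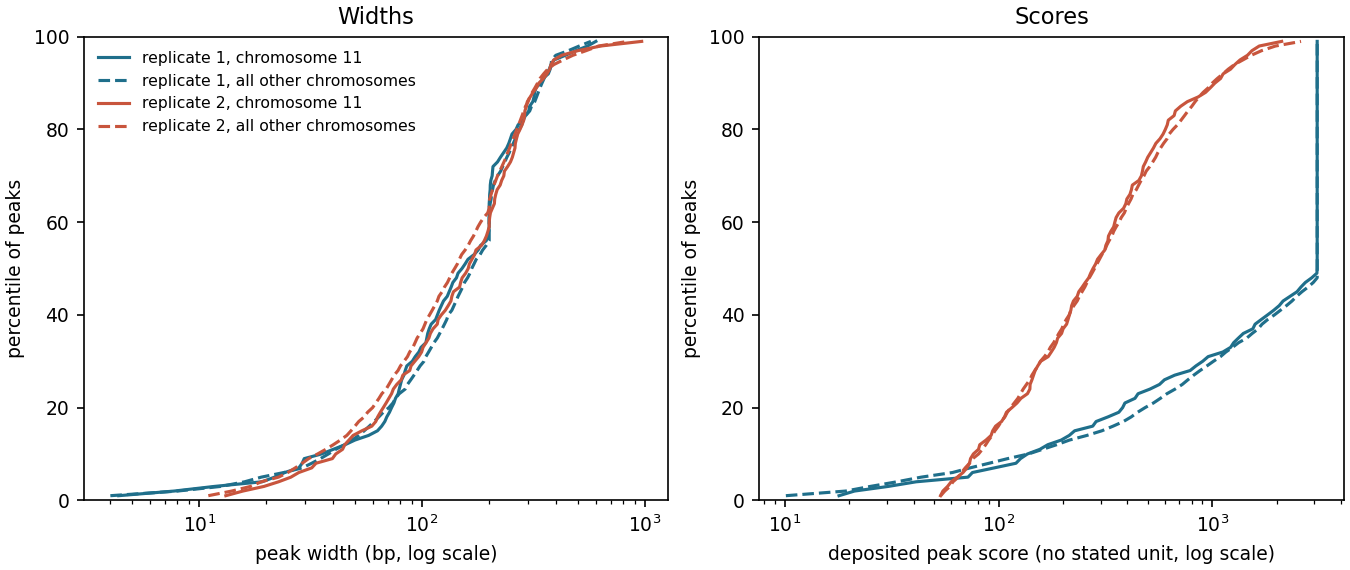
Widths in bp and deposited scores of chromosome 11 peaks (solid lines) and of peaks on all other chromosomes (dashed lines) against their percentile within each list, both on log axes. Solid and dashed lines run close together in each replicate. The vertical rise at 3100 holds 50.7% of the chromosome 11 peaks of replicate 1, and the short rise near 200 bp in the widths of replicate 1 is the group of 28 peaks.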

How the data were processed

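m5C MeRIP-seq was done on 2 immunoprecipitated and 2 input samples, and each deposited list is named in the labels of 1 of each with the same replicate number, so peaks were called per replicate. The trimming tool cutadapt 1.9.3 and the build hg19 are listed, per the submitters' processing notes. Peak names begin with MACS, which is a peak caller. The sources used here do not give its version, thresholds, the aligner or how the lists were limited to mRNA, and each could alter which peaks appear. Column 5 holds the authors' deposited score, whose unit is not stated.

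Starts were read as 0-based and are printed 1-based. Peaks were placed in windows by their centres, and a peak overlapped the other list when they shared 1 bp or more on the same strand. Band edges came from general knowledge of hg19, rounded to whole Mb. Shares have 95% Wilson intervals and medians exact binomial intervals. Python 3.11.15 was used with pandas 2.3.3, numpy 2.4.6 and scipy 1.17.1. Overlaps were checked against bedtools 2.31.1, and the code was tested on simulated data. Named are the 5 fullest windows of each list with ties, the longest empty run, the 10 pairs of highest mean log2 score, the 5 widest and 5 highest-scoring peaks of each list, and clusters of 4 or more peaks. The 5 highest of replicate 1 are not named, as 111 peaks tie at 3100. Other peaks and windows given by position were chosen after their values were seen. Members and rules were chosen with earlier results of these data known. Alternatives covered the score, width and length of the lists, clusters, band edges, window size and origin, strand, overlap rule and each replicate left out.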

Additional observations from a re-analysis of the deposited data

How the results depend on the processing

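Of the alternatives tried, those for the share of chromosome 11 in each list, the shares of 11q13 and 11p15, the windows with both lists and the median widths all stayed within the counting interval of the main value, or within 1.5 times for the count of windows. As a share of windows with any peak, however, the windows with both lists went from 71.6% (63 of 88) to 58.3% (84 of 144) with windows of 0.5 Mb, 80% (44 of 55) with 2 Mb, 65.2% (60 of 92) when moved by 0.5 Mb, 59.4% (85 of 143) with each strand apart, 65.9% (56 of 85) with lists of equal length and 55.1% (43 of 78) with the higher-scoring part of each list, from its median upwards. The lowest 3 lie below the interval of 61.4% to 79.96%. The share of replicate 1 peaks that overlapped replicate 2 fell from 10.5% to 3.20% with a reciprocal overlap of 50%, to 5.41% with that score filter and to 6.85% with replicate 2 limited to the length of replicate 1. The last 2 leave fewer peaks to overlap. Seen from replicate 2 it fell from 7.52% to 2.19% and 4.43% under the first 2. The median replicate 1 score was 547.21 among peaks below 3100, by construction. With either replicate left out, the mean share of both lists is the other list's own share. For 11q13 these were 28.8% and 32.4%, and for 11p15 21.6% and 25.6%. They repeat the values given above and are no separate check. No paired analysis was possible because each list already joins an immunoprecipitated and an input sample and no test between groups was made. Depth is unknown, so a missing peak cannot be told apart from too few reads.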
